A study of Homo sapiens with 2 samples.

Results

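The MXD family and its MAX network partners are 10 human genes, MXD1, MXI1, MXD3, MXD4, MNT, MAX, MGA, MLX, MLXIP and MLXIPL, and they were examined for anti-Flag CUT & Tag peaks in TFK-1 cells. CUT & Tag uses an antibody to bring a transposase to a DNA-bound protein, so that the DNA nearby is cut and tagged for sequencing. TFK-1 is an established human line of extrahepatic cholangiocarcinoma. The LV-HOXA5 cells carried a lentivirus for Flag-tagged HOXA5, a homeobox transcription factor, the LV-HOXA5-NC cells were the normal control given a negative-control lentivirus, and each condition had 1 library from 1000000 cells. A gene was counted when a peak lay inside it or within 3 kb of either end in the RefSeq annotation of GRCh38, and all 10 genes were found among 20050 placed protein-coding genes.

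The genes encode or partner basic helix-loop-helix leucine-zipper proteins that bind the E-box as pairs. MYC paired with MAX activates genes, whereas the MXD proteins and MNT take MAX away from MYC and bring the SIN3 and histone deacetylase corepressor to the same sites. MGA joins MAX in a Polycomb complex, and MLX, a relative of MAX, pairs with the glucose-sensing factors MLXIP (MondoA) and MLXIPL (ChREBP).

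The LV-HOXA5 list held 8043 peaks from 15778555 fragments and the LV-HOXA5-NC list 635 peaks from 1948734 fragments, which is 12.4% of the former depth. With 1 library per condition no difference between the lists has a replicate check and none was tested. The lists hold no expression values, so the level of HOXA5 and the identity of the cells were not checked here.

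Of the 10 genes, 3 had an LV-HOXA5 peak, namely MXD1, MNT and MLXIPL. This share of 30% has an exact 95% binomial interval of 6.67% to 65.2%, and 20.7% of all protein-coding genes passed the same rule. The interval treats the 10 genes as a random draw, but they are a chosen list, so it describes only how few genes there are. The share of the network genes is not told apart from the background, and the difference was not tested. A peak within 1 kb of a gene start was found at 2 of the 10, MXD1 and MNT, beside 14.1% of the 15843 protein-coding genes whose start is annotated. None of the 10 had an LV-HOXA5-NC peak, where 0.713% of protein-coding genes had one.

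The MXD1 sequence is shown first because its peak covers part of it. MXD1, the founding member of the MXD repressors, lies on the plus strand at chr2:69915109-69942945. The bases printed are the 250 before its start, chr2:69914859-69915108 on the plus strand of GRCh38.p14 from RefSeq. The 130 bases in capitals lie inside the LV-HOXA5 peak and the 120 in lower case lie between the peak and the start.
MXD1: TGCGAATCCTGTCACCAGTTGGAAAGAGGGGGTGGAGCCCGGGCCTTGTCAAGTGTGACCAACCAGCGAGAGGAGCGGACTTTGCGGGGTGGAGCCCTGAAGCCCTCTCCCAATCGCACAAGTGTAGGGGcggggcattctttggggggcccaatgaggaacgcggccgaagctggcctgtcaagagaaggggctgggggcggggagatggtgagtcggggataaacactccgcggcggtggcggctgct

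The study tested the MXD1 promoter by ChIP with 4 primer pairs, and only pair D was found in this RefSeq window. Its forward primer lies in the lower-case part of the sequence above, from 83 to 64 bases before the start, and its reverse primer ends 17 bases after the start.
MXD1-D-F: cgaagctggcctgtcaagag
MXD1-D-R: agaacccggagcagagcag
Together they bound an amplicon of 100 bp at chr2:69915026-69915125. The amplicon shared 0 bases with the peak, and 37 bases lay between them. The other 6 primers did not match the window, which reaches no farther than 250 bases before the start, so their place relative to the peak was not determined. They include the pair for site C, which the study followed up, so the position of pair D does not tell where that site lies relative to the peak. In the paper, ChIP enriched the region with site C but not the other sites tested, which include site D. Binding there was inhibited when the homeodomain of HOXA5 was deleted. In a luciferase reporter assay in another human cell line, the HOXA5 effect was lost on mutation of site C but not of the other sites. The paper also states a position for site C and describes the site as close to the peak. The far edge of the peak lay 581 bases before the start used here. The stated position is farther upstream than this edge, and so outside the peak, if both are counted from the same start. Whether they are was not checked.

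The MXD1 peak, at chr2:69914528-69914988, was 461 bp long and spanned 581 to 121 bases before the start. Its summit lay 478 bases before the start. The pileup, which counts the fragments stacked at the summit, was 32 (95% exact Poisson interval 21.9 to 45.2, counting error only). The local background recovered from the deposited values was 3.48 fragments, which gave a fold enrichment of 7.36 over that background and a −log10 q-value of 16.3. By fold the peak was number 739 of the list, above 90.8% of all LV-HOXA5 peaks. With the background held fixed, the counting error of the pileup gives a fold of 5.11 to 10.3, and 59% and 97.2% of the peaks lay below these bounds.

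No other gene end was close to this peak. The nearest was that of the snoRNA gene LOC124906176 at 1729 bp, and the nearest end of another protein-coding gene was that of SNRNP27 at 9292 bp. The neighbouring LV-HOXA5 peaks on chromosome 2 were 84.9 kb before it and 276 kb after it. Among 1914 LV-HOXA5 peaks within 1 kb of an annotated protein-coding start, 81.6% had only 1 such gene within that distance, so a peak at a single start was the usual case.

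MNT, a repressor that most cell types contain, had the other promoter peak. The gene is on the minus strand at chr17:2384073-2401060, and its peak at chr17:2401565-2401990 was 426 bp long. It spanned 930 to 505 bases before the start, with the summit 625 bases before it. The pileup was 34 (interval 23.5 to 47.5), which is 2 fragments more than at MXD1. The local background was 7.11 fragments, 2.04 times that of MXD1, and the fold was 4.31 with a −log10 q-value of 9.30. The nearest other gene end was that of the lncRNA gene LOC284009 at 4991 bp.

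The MXD1 and MNT peaks thus had similar heights and different folds. By pileup MXD1 stood above 86% of the LV-HOXA5 peaks and MNT above 87.4%, but by fold MNT stood above only 32.3%. The fold at MXD1 was 1.71 times that at MNT. Counting error gives MNT a fold of 3.03 to 5.98, which overlaps the interval of MXD1 in part. An overlap of separate intervals is no test of the difference, which was not tested, and the order by pileup is the opposite of that by fold. The background of MNT was above that of 97.8% of the peaks at protein-coding starts and the background of MXD1 above that of 76.9%. The 250 bases before the start had a GC content of 78% at MNT and 64.4% at MXD1, and the part of base composition in the background was not tested.

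**Figure D1:**
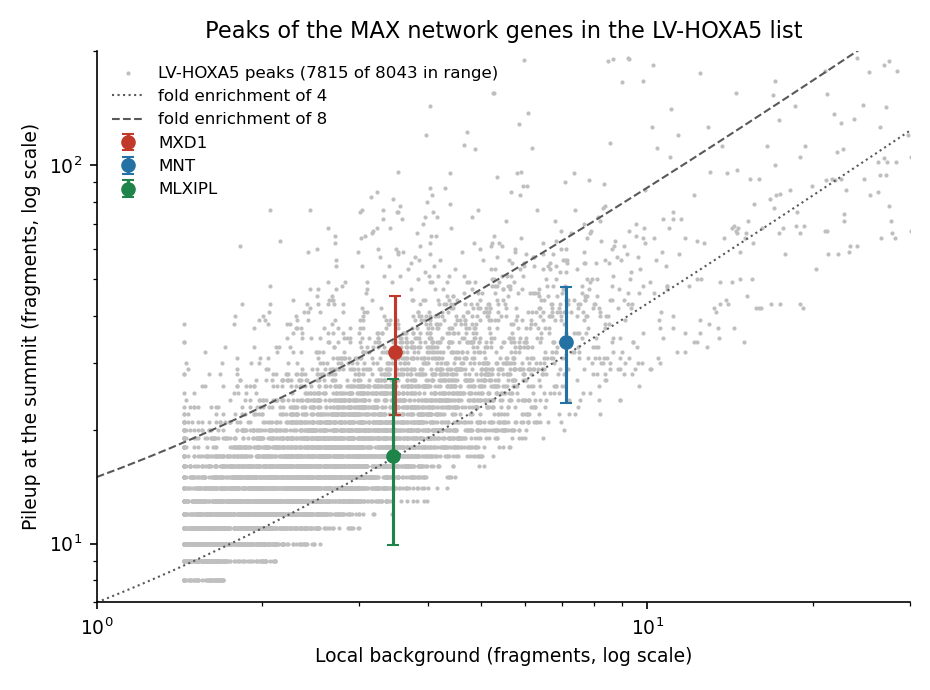
Pileup at the summit against local background, both in fragments on log axes, for the 7815 LV-HOXA5 peaks within the drawn range (grey) and for the peaks of MXD1, MNT and MLXIPL with 95% exact Poisson intervals as bars. MXD1 (32) and MNT (34) sit at nearly the same height, MNT farther right at a background of 7.11, and MLXIPL (17) sits below MXD1 at nearly the same background. The dotted and dashed lines mark constant fold enrichment.

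Both promoter peaks lay farther upstream than most. Over the 1914 peaks at protein-coding starts, the median summit was 110 bases before the start, and 61.3% of the peaks covered the start itself. The MXD1 and MNT peaks did not cover it. Only 5.49% of these peaks had a summit farther upstream than MXD1, and 2.98% farther than MNT. The summits of MXD1 and MNT were 147 bases apart on this scale. These peaks had a median fold of 4.90 and a median pileup of 16, and 94.4% of them had a lower fold than MXD1 and 27.8% a lower fold than MNT.

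**Figure D2:**
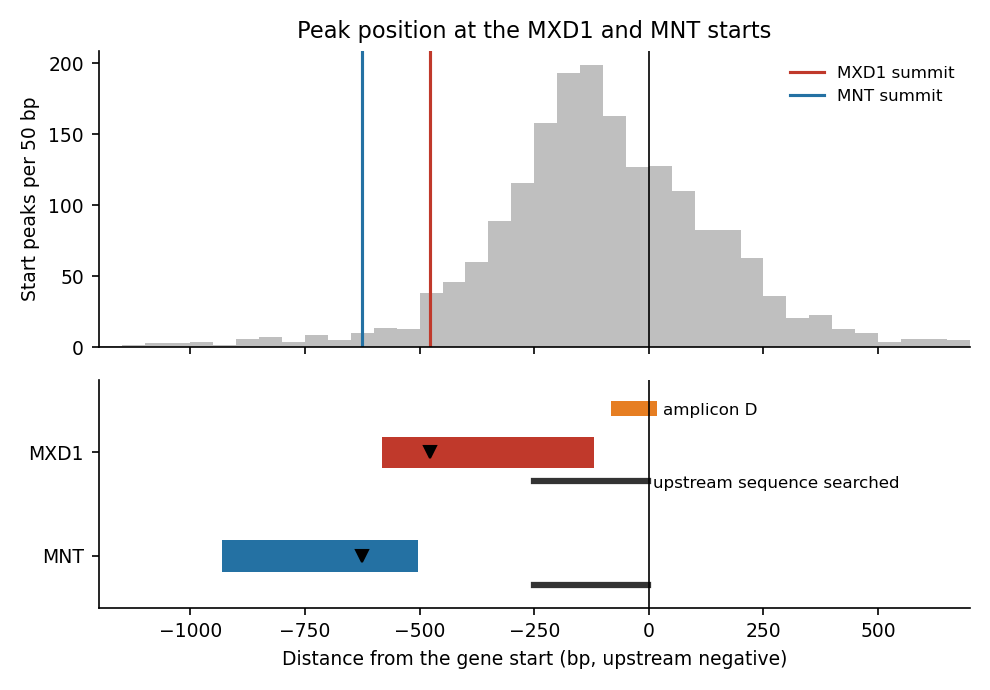
Upper panel, number of LV-HOXA5 peaks per 50 bp by the distance of the summit from the closest protein-coding start (grey; 51 summits lie outside the drawn range), with the MXD1 and MNT summits as lines at 478 and 625 bp upstream. Lower panel, the MXD1 and MNT peaks as bars with triangles at the summits, the 250 bp of upstream sequence searched as dark lines, and amplicon D, which starts 37 bp past the end of the MXD1 peak.

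MLXIPL (ChREBP), the glucose-responsive partner of MLX, had a peak inside the gene. MLXIPL is on the minus strand at chr7:73593202-73647907, and the peak at chr7:73612986-73613277 was 292 bp long. It lay 19784 bp from the nearest gene end and 11245 bp downstream of the start in the promoter table, and the gene record reaches farther upstream than that start. Whether it is in an exon or an intron was not determined, as no exons were given. The pileup was 17 (interval 9.90 to 27.2) on a background of 3.46 fragments, with a fold of 4.04 and a −log10 q-value of 4.11. The background was nearly that of MXD1, and the lower fold went with fewer fragments, with intervals of the pileups that overlap in part, and the difference was not tested. The fold stood above 22% of all peaks. Among the 1653 LV-HOXA5 peaks that, like this one, lay within a protein-coding gene and more than 3 kb from any gene end, the median fold was 4.62 and the median pileup 16, and 24.4% had a lower fold.

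The other paralogues of MXD1 had no peak within 3 kb. MXI1, also a MAX-binding repressor, was 112 kb from the nearest LV-HOXA5 peak, and MXD3, an MXD protein of proliferating cells, was 113 kb from one. The peak nearest to MXD3 was 508 bp from an end of GRK6, a gene for a kinase that acts on G protein-coupled receptors. MXD4 was closer, with a peak 4958 bp past its downstream end. That peak had a low pileup of 10 (interval 4.80 to 18.4), but its fold of 4.42 was not below the 4.31 of MNT, and it lay 106 bp from an end of POLN, a DNA polymerase gene.

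MAX, the shared partner of MYC and the MXD proteins, had no peak at either of its annotated starts. The peak nearest to it was 19.0 kb away and touched an end of FNTB, a farnesyltransferase subunit gene. MGA, the largest of the 10 genes at 148717 bp, was 160 kb from a peak and had no peak within 100 kb. MLX was 51.0 kb and MLXIP 78.6 kb from the nearest peak. The median distance of the 10 genes was 35 kb and that of all protein-coding genes 77.7 kb, and the distances of the 10 genes ran from 0 for the peak inside MLXIPL to 160 kb for MGA.

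**Figure D3:**
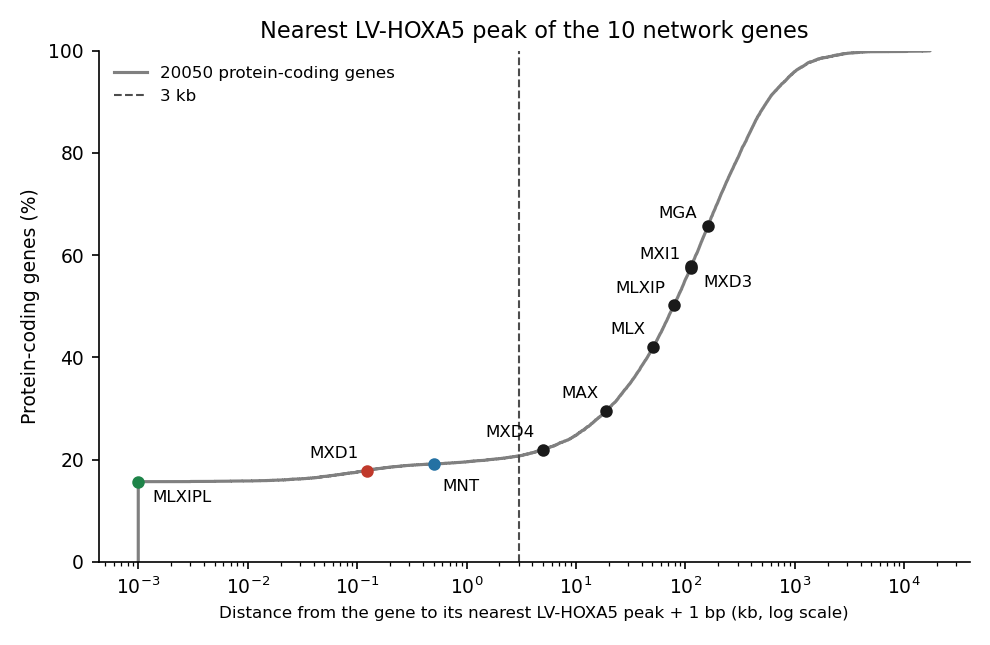
Cumulative share of 20050 protein-coding genes by the distance from the gene to its nearest LV-HOXA5 peak (grey, log axis in kb, 1 bp added), with the 10 network genes as points. MLXIPL, MXD1 and MNT lie left of the dashed 3 kb line, MXD4 just right of it at 4.96 kb, and MGA farthest right at 160 kb.

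The sequence before the start was compared across the 10 genes, which have 15 annotated starts in the promoter table. The letters TAAT, the core of many homeobox sites, and the longer homeobox-type site CACTAATT, which contains it, were searched on both strands, as was CACGTG, the E-box. The 250 bases before the MXD1 start held none of these, and neither did those before the starts of MXI1, MXD3, MAX and MLXIP. TAAT was found in 2 of the 15 windows, 1 each at MGA and MLXIPL, and 47.4% of 35116 RefSeq promoter windows of the same length hold it. The GC content of the 15 windows ran from 55.6% to 78%, beside a median of 58% for all windows. The shares were not matched for GC content, and no difference between them was tested. CACTAATT was found at none of the 10 genes and is in 0.427% of the windows. These letters say nothing of the 331 bases of the MXD1 peak that lie farther upstream, or of the MNT peak, which lies wholly outside its window.

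The E-box, the element the network proteins themselves bind, was found in 3 of the 15 windows of these genes, those of MXD4, MNT and MLX. It was found in 6.34% of all windows, again without matching for GC content and without a test. It lay 238 bases before the start at MXD4, 193 at MNT and 50 at MLX. The stretches are printed from RefSeq (GRCh38.p14) because they show the network's own element in promoters with and without an LV-HOXA5 peak, with CACGTG in capitals. They are chr4:2262325-2262359 and chr17:2401231-2401270 on the minus strand and chr17:42567033-42567072 on the plus strand.
MXD4: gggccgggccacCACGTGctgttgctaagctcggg
MNT: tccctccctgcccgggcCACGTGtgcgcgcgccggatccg
MLX: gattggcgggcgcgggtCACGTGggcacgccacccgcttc
Of these genes only MNT had a promoter peak, and 311 bases lay between its E-box and that peak.

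The LV-HOXA5-NC library had no peak near any of the 10 genes, the closest being 649 kb from MXD3. At the depth of that library, however, peaks of these heights would have been hard to list. Scaled by the fragment totals, the pileup would be 3.95 at MXD1, 4.20 at MNT and 2.10 at MLXIPL. With the background scaled in the same way, a pileup of 5 at MXD1 and MLXIPL and of 7 at MNT would be enough for the least significant −log10 p-value in the control list, 5.13. The lowest pileup in that list was 4. A signal of the same density in the control cells could therefore be missed at this depth. The ARID4B peak of the SIN3 corepressor list scales to 3.21 with 5 needed and did share bases with a control peak. The pileup of that control peak is not given here, so whether its density was the same cannot be told. The missing control peaks do not show that these genes were free of signal in the control cells. In the LV-HOXA5 library itself, the pileup needed was 12 at MXD1 and MLXIPL and 19 at MNT.

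The wider network was read from 5 lists of 41 genes, of which 12 (29.3%) had an LV-HOXA5 peak in the same window, beside the background of 20.7%. The difference from the background was not tested. By list the share was 35.7% for the SIN3-HDAC genes, 25% for the MYC genes and 18.2% for the MGA-containing Polycomb genes. It was 33.3% for the targets of MondoA and ChREBP and 33.3% for those of MYC and MAX. Each list holds only 3 to 14 genes. The 13 peaks had folds of 2.52 to 6.73 with a median of 5.38. None of them had a fold above the 7.36 of MXD1, and 3 were below that of MNT.

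The SIN3-HDAC corepressor, which the MXD proteins and MNT recruit, had a peak at 5 of 14 genes. ARID4B and ARID4A, paralogous DNA- and chromatin-binding subunits, both had one. The ARID4B peak had 26 fragments and a fold of 6.73, and it was the only one of the 13 that shared a base with an LV-HOXA5-NC peak. It lay 825 bp from the annotated ARID4B start. The protein-coding start closest to it was that of GGPS1, with the summit 148 bases before that start. The ARID4A peak had 22 fragments and a fold of 5.38. It lay 45 bp from the ARID4A start and touched an end of the lncRNA gene PSMA3-AS1. ING1 and ING2, paralogous readers of methylated histone H3, had folds of 5.36 and 5.09 from 27 and 14 fragments, and the ING1 peak lay 34 bp from an end of CARS2. The ING2 peak lay 1056 bp from the annotated ING2 start and 214 bp from an end of the lncRNA gene ING2-DT. SIN3A, the scaffold that binds the MXD proteins, is named after its values were seen. It had a pair of peaks with 44 and 24 fragments and, on backgrounds of 9.08 and 8.92 fragments, folds of 4.46 and 2.52. The deacetylases HDAC1 and HDAC2, the histone chaperones RBBP4 and RBBP7 and the second scaffold SIN3B were among the 9 genes without a peak, and they too are named after this was seen.

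MYC, the activator that competes for MAX, was the only one of the 4 genes of the MYC list with a peak. The pileup was 30 (interval 20.2 to 42.8) on a background of 6.37 fragments, and the fold was 4.20, close to the values of MNT. Unlike the MNT peak, the MYC peak was not placed at a promoter. It covered an end of the gene, and no MYC start was annotated in the promoter table, so its distance to the start was not determined. The MGA-containing Polycomb complex had a peak at 2 of 11 genes, the heterochromatin protein genes CBX3 and CBX1, with folds of 6.15 and 4.19. The CBX3 peak was 112 bp from an end of HNRNPA2B1 as well. Among 3 target genes of MondoA and ChREBP, ARRDC4, an arrestin-domain gene, had a peak with a fold of 6.45 that covered its start, whereas TXNIP and PKLR had none. Among 9 classical E-box target genes of MYC and MAX, EIF4E, TERT and LDHA had folds of 6.28, 6.05 and 6.01. The LDHA peak covered the start of this glycolytic gene, the EIF4E peak lay 562 bp from the start of this translation factor gene, and the TERT peak lay inside the telomerase gene, 4053 bp from its start.

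**Figure D4:**
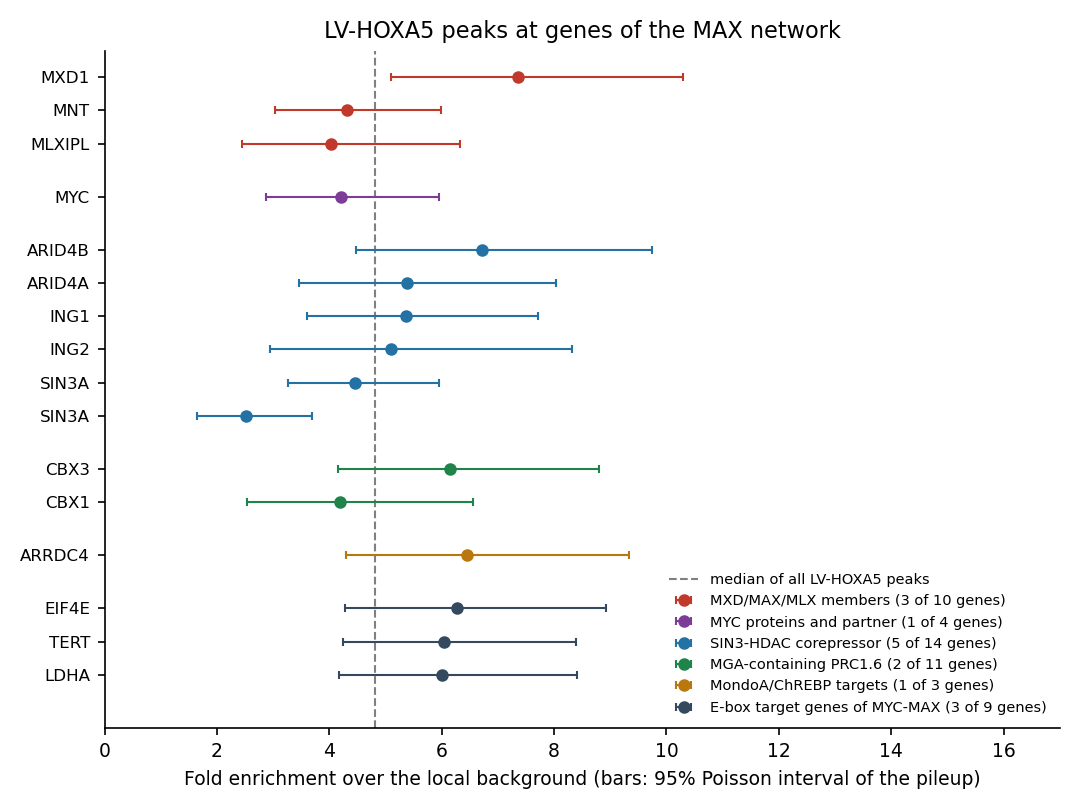
Fold enrichment over the local background for each LV-HOXA5 peak at the MXD, MAX and MLX genes and at the 5 lists of other network genes, with bars for the 95% exact Poisson interval of the pileup at a fixed background and a dashed line at the median of all LV-HOXA5 peaks, 4.82. MXD1 has the highest value at 7.36, and its bar overlaps those of the other peaks except the lower one of SIN3A.

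Other genes had a peak near an end with about the height and fold of the MXD1 peak. Among 2611 other protein-coding genes with a peak within 1 kb of an end, the 5 most like it by the distance in log2 pileup and log2 fold were NLK, SF3B6, FAM228B, HNRNPA0 and PSAT1. NLK, a kinase of Wnt signalling, had a pileup of 32 and a fold of 7.32, at a distance of 0.0079. The splicing factor gene SF3B6 and FAM228B share a single peak with a pileup of 32 and a fold of 7.18. HNRNPA0, which encodes an RNA-binding protein, had 32 fragments and a fold of 7.61, and PSAT1, an enzyme of serine synthesis, 31 fragments and a fold of 7.49. In all, 107 of the 1914 peaks at protein-coding starts had a higher fold than MXD1.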

How the data were processed

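The members and gene lists were chosen with earlier results of these data known. The submitters' processing notes name fastp, Bowtie2, deepTools, MACS2, ChIPseeker and GRCh38. Per the file headers, the authors ran MACS 2.2.7.1 on each duplicate-free library without a control, reading fragments from both ends, with a q-value limit of 0.05 and with a local background window of 10 kb. The deposited pileup is a signal in fragments that is not scaled for depth, and the deposited fold is a ratio to the background of the same library after adding 1 to both. The deposited p-values and q-values are given as −log10. A second deposited form with the same peaks, fold and q-values was used only for a check.

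The background of a peak was obtained by dividing (pileup + 1) by the fold and taking away 1. For 8017 of the 8043 LV-HOXA5 peaks a Poisson probability with this background matched the deposited −log10 p-value to within 0.01. Peaks were placed on RefSeq genes of GRCh38.p14. Starts and strands came from a RefSeq promoter table holding all 10 genes, and distances run from the nearest edge of a peak. The minimum peak length was 246 bp for LV-HOXA5 and 283 bp for the control library. By rule, the genes named are the 10 members, the 4 genes of highest fold in each network list and the 5 genes with the peak most like that of MXD1. Neighbouring genes of a described peak and list genes without a peak were named after their values were seen. Alternatives were windows of 1 and 10 kb, a q-value of 0.001, a fold at or above the median, summits in place of edges, peaks without a control peak, peaks near coding gene ends and other rankings. Python 3.11.15, NumPy 2.4.6, SciPy 1.17.1, pandas 2.3.3 and Matplotlib 3.10.9 were used. The Poisson intervals cover counting error only.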

Additional observations from a re-analysis of the deposited data

How the results depend on the processing

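MXD1, MNT and MLXIPL were the genes with an LV-HOXA5 peak for a window of 1 kb, a q-value of 0.001 or less, summits in place of edges and peaks without a control peak, and MXD4 joined them at 10 kb. With peaks at or above the median fold only MXD1 remained, so the count fell to 1. The share of protein-coding genes was 19.6% at 1 kb, 24.8% at 10 kb, 17.9% at a q-value of 0.001 or less and 11.2% at or above the median fold. The share of peaks below MXD1 was 86% by pileup, 89.2% by −log10 q-value, 94.3% among peaks within 1 kb of a protein-coding gene end and 93% among peaks without a control peak. By pileup MXD1 ranked 2 of the promoter peaks, behind MNT, and by −log10 q-value it ranked first. Measured from the summit, its distance to the start was 478 bp in place of 121 bp. The counts near starts, in the control list and in the 5 network lists stayed within 1.5 times under the alternatives run for them, with 9 to 14 of the 41 other network genes.

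No paired analysis was possible because each condition had 1 library. Depth limits the control list, which has 12.4% of the fragments of LV-HOXA5. The promoter table holds only some starts of each gene, and exons were not used here.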
